A study of Mus musculus with 21 samples.

Results

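The interferon-gamma-induced GTPases are cell-autonomous defence proteins, and this account follows 9 of them across cultured mouse tumour cells and the tumours those cells formed. The list named 10 genes, 6 guanylate-binding proteins (Gbp2, Gbp3, Gbp4, Gbp5, Gbp6 and Gbp7) and 4 immunity-related GTPases (Iigp1, Igtp, Irgm1 and Irgm2). A gene was kept when the array's annotation gave it a probe set with a single gene symbol, and among several such probe sets the brightest on average across the 21 arrays stood for the gene. That left 9 genes, 5 Gbp genes and 4 IRG genes, of 22180 genes on the array. Gbp2 was the gene left out, because its probe set also carries Gbp2b, and its values stand apart from the counts.

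Total RNA of 5 groups was hybridised to Affymetrix whole-transcript arrays. Py117 and Py8119 are cell lines from mice carrying polyoma middle T under the MMTV promoter, which drives expression in mammary epithelium; per the labels they are clones from such mice, so each line stands for itself. Each was grown in F12K medium with 5% serum and sampled in culture (3 arrays each). Each was also injected, 1000000 cells in 50% Matrigel into mammary fat pad number 4, and the tumour was taken (5 arrays each), as were 5 tumours from both lines mixed 1:1. All cells and tumours were untreated, and tumours were collected at the time when radiation would usually be given. The labels call the arrays of a group biological replicates without naming the mouse or culture of each; genotype, sex and age of the host mice are not given in the sources used here.

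Cells make these proteins after interferon-gamma binds its receptor (Ifngr1 and Ifngr2), whose kinases Jak1 and Jak2 start a signal that raises Irf1. GBPs and the effector IRG Iigp1 coat the membranes of vacuoles that hold intracellular pathogens and help to break them, while Igtp, Irgm1 and Irgm2 are regulatory IRGs that guard the cell's own membranes. Interferon-gamma acts on promoters through GAS elements, and Irf1 and Irf9-containing complexes bind ISRE elements. Type I interferon can switch on many of the same genes, and tumour cells, macrophages, endothelial cells and lymphocytes can all respond.

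The promoters are shown because the genes moved together and because both element types are short enough to be seen in the letters. The windows used were 8 RefSeq promoter windows of 7 of the 10 listed genes (build GRCm38.p6). Each ran from 250 bases before to 50 bases after the start. Promoters of Iigp1, Gbp4 and Gbp6 were not analysed, so the shares given next do not cover these genes. Among the genes not covered is Iigp1, which had the largest difference between the pure tumours. Both strands were searched for TTCNNNGAA, the GAS pattern, and GAAA followed by any 2 bases and GAAA, the core of an ISRE. The ISRE core was present in 7 of 8 windows (87.5%), at least once for each of the 7 genes, against 1131 of 32851 windows in the whole table (3.44%). The GAS pattern was present in 4 of 8 windows (50.0%) against 2726 of all windows (8.30%), in Gbp5, Gbp7, Igtp and Irgm2. These are matches of letters, not measured binding. For 6 of the genes used here, a stretch of 80 bases is printed 5′ to 3′ on the gene's strand, with the ISRE core, or its reverse complement, in capitals:
Gbp3 (chr3:142559967-142560046, plus strand): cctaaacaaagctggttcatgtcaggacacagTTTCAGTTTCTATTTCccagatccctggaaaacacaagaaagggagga
Gbp5 (chr3:142496734-142496813, plus strand): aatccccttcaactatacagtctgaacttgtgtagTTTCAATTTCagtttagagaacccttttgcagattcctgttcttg
Gbp7 (chr3:142530248-142530327, plus strand): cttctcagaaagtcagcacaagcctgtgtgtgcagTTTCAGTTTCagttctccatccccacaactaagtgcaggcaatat
Igtp (chr11:58199487-58199566, plus strand): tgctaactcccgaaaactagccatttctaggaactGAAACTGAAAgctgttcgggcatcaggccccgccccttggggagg
Irgm1 (chr11:48871403-48871482, minus strand): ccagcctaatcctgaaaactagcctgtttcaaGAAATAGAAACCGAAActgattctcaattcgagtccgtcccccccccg
Irgm2 (chr11:58214878-58214957, plus strand): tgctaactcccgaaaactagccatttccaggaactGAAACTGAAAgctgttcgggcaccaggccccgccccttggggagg
Gbp3 and Irgm1 each held 2 ISRE matches that overlap, printed as 1 run of capitals. The stretches of the neighbouring genes Igtp and Irgm2 were identical at 78 of 80 bases, so they are not separate instances of the pattern.

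Deposited values are log2 signals, in which a difference of 1 is a doubling, and a signal is compared only within a gene, never between genes. As a reference for background, the 95th percentile over 1390 olfactory and vomeronasal receptor genes was a log2 signal of 5.31. Correlations within a group were 0.969 to 0.994 across genes. Array medians ran from 5.65 to 6.08 and followed the groups. They were 5.647 to 5.829 in Py8119 cultures, 5.861 to 5.929 in Py117 cultures and 5.928 to 5.976 in Py8119 tumours. In mixed tumours they were 5.975 to 6.003, and in Py117 tumours 6.034 to 6.078. The labelled cell of origin was checked with 8 epithelial markers: their mean level was 9.72 to 9.80 in Py117 cultures and 6.24 to 6.46 in Py8119 cultures, where Epcam, Esrp1, Cldn4 and Cldn7 were under the background reference. Differences were tested with limma, fitted on all 22180 genes, and a gene counts as called where the p, adjusted by Benjamini-Hochberg, is under 0.05. Because whole tumours were measured, fewer cells of a type and less RNA per cell cannot be told apart.

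In culture, both lines carried little of these transcripts. Mean signals of 7 of the 9 genes (all but Gbp7 and Irgm1) were under the background reference in both lines, and the median difference between Py8119 and Py117 cultures was 0.07, against -0.01 over all genes. Adjusted for all genes, 2 of 9 were higher in Py8119 cultures (14.5% of all genes were) and 1 of 9 was lower (12.3% of all genes). Irgm1, a regulatory IRG tied to autophagy and to survival of immune cells, was 6.08, 5.88 and 5.39 in Py117 cultures and 6.42, 6.36 and 6.44 in Py8119 cultures. The groups did not overlap, with a difference of 0.63 ± 0.17 (SE; limma adjusted p = 0.0351). Gbp4 was higher by 1.33 ± 0.28 (adjusted p = 0.0107) and Irgm2 lower by 0.68 in size (difference -0.68 ± 0.15, adjusted p = 0.0144), both at signals under the background reference. Irgm1 lost its call without Py117 culture 2 or without any one Py8119 culture, and Irgm2 without Py117 culture 2 or 3; without Py8119 culture 1, Gbp7 was called lower as well. Counts then ran from 1 to 2 higher and from 0 to 2 lower.

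**Figure D1:**
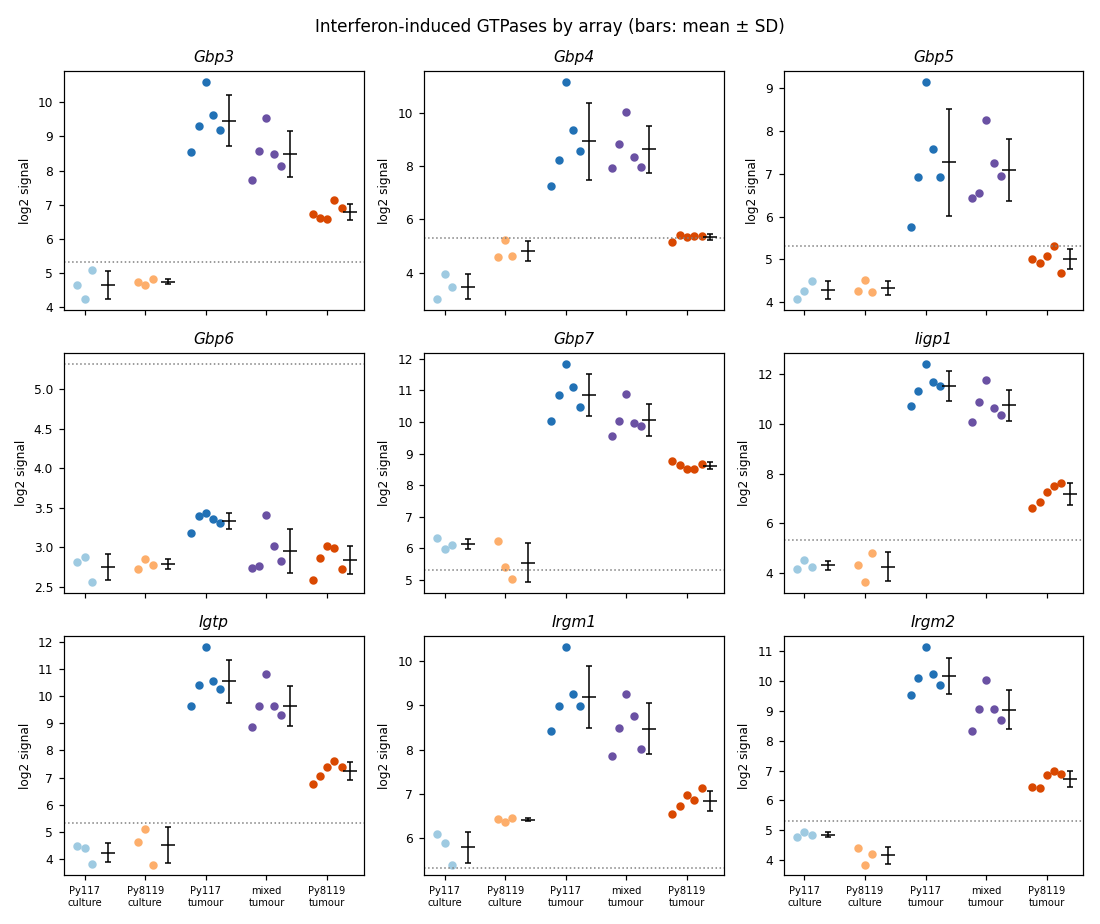
Log2 signal of the 9 GTPase genes by array (points, in label order) in 2 culture and 3 tumour groups, with the mean and SD of each group beside the points and the background reference of 5.31 as a dotted line; y axes differ between panels. In 8 of the 9 panels the 5 Py117 tumours and the 5 mixed tumours lie above the 5 Py8119 tumours, and Gbp6 stays under the dotted line on all 21 arrays.

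In tumours the picture was different: Py8119 tumours held less of these transcripts than Py117 tumours, and less than mixed tumours for 8 of 9. The mean signal of the mixed tumours lay between those of the pure tumours for 9 of 9 genes, but mixed and Py117 tumours overlapped for each gene and differed by the test for only 4. Between the tumours of the pure lines, 9 of 9 genes were lower in Py8119 tumours (limma, adjusted p under 0.05; 16.5% of all genes were called lower), and 8 of 9 were at least 2-fold lower (5.27% of all genes). Their median difference was -2.67, against 0.01 over all genes. The groups did not overlap for any of the 9, a separation seen in this direction for 11.9% of all genes.

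Among the GBPs, Gbp7, which acts at pathogen vacuoles and in oxidative defence, was 10.03, 10.85, 11.82, 11.09 and 10.48 in Py117 tumours 1 to 5. It was 9.54, 10.04, 10.89, 9.96 and 9.88 in mixed tumours, and 8.75, 8.63, 8.52, 8.51 and 8.68 in Py8119 tumours. The Py8119 tumours were close to each other and all under the lowest mixed tumour, and Gbp7 was 4.71-fold lower in them than in Py117 tumours (difference -2.24 ± 0.26, adjusted p = 2.07e-06). Gbp3, another large GTPase of the family, was 8.55, 9.31, 10.60, 9.62 and 9.19 in Py117 tumours. In mixed tumours Gbp3 was 7.73, 8.56, 9.53, 8.49 and 8.12, and in Py8119 tumours it was 6.73, 6.60, 6.58, 7.13 and 6.90. Here too the Py8119 tumours lay under all others, 6.34-fold below the Py117 tumours (difference -2.67 ± 0.32, adjusted p = 2.46e-06).

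Gbp5, known for promoting inflammasome assembly, was 5.76, 6.93, 9.16, 7.58 and 6.92 in Py117 tumours and 6.43, 6.55, 8.26, 7.25 and 6.96 in mixed tumours. In Py8119 tumours Gbp5 was 5.01, 4.92, 5.07, 5.32 and 4.68, around or under the background reference. Every Py117 and mixed tumour was above them, and the difference from Py117 tumours was -2.27 ± 0.45 (adjusted p = 0.000479). Gbp4 gave 7.27, 8.25, 11.18, 9.36 and 8.59 in Py117 tumours and 7.94, 8.85, 10.05, 8.35 and 7.97 in mixed tumours. In Py8119 tumours it was 5.15, 5.42, 5.33, 5.38 and 5.37, a narrow band at the background reference. Gbp4 was 12.1-fold lower there than in Py117 tumours (difference -3.60 ± 0.52, adjusted p = 2.14e-05), and since the low group sits at background the size depends on background signal. Gbp6 ran from 2.56 to 3.43 over all 21 arrays, under the background reference everywhere, so its called difference of -0.50 ± 0.12 (adjusted p = 0.00323) is one between background signals.

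The IRGs had a larger median difference (-3.37) than the GBPs (-2.27) between the same tumours. Background limits the GBP differences: Gbp6 was under it on all arrays, and Gbp4 and Gbp5 lay at or under it in Py8119 tumours. The IRGs were above background there, so the medians of the families are not on equal terms. Iigp1, the effector IRG that loads onto vacuoles and ruptures them, was 10.72, 11.35, 12.41, 11.71 and 11.55 in Py117 tumours. It was 10.07, 10.89, 11.76, 10.64 and 10.38 in mixed tumours and 6.61, 6.87, 7.28, 7.51 and 7.64 in Py8119 tumours. The gap between the highest Py8119 tumour and the lowest mixed tumour was wider than the spread within any group, and Iigp1 was 20.6-fold lower in Py8119 than in Py117 tumours (difference -4.37 ± 0.31, adjusted p = 2.95e-09).

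Irgm2, a regulatory IRG, was 9.53, 10.10, 11.13, 10.24 and 9.85 in Py117 tumours and 8.31, 9.04, 10.04, 9.07 and 8.70 in mixed tumours. In Py8119 tumours it was 6.46, 6.41, 6.86, 7.0 and 6.90, under every other tumour and 10.9-fold below Py117 tumours (difference -3.44 ± 0.29, adjusted p = 2.57e-08). Igtp, the regulatory IRG also called Irgm3, was 9.64, 10.42, 11.81, 10.55 and 10.26 in Py117 tumours. Its mixed tumours gave 8.86, 9.62, 10.82, 9.62 and 9.30, and its Py8119 tumours 6.77, 7.06, 7.38, 7.61 and 7.38. The order of groups was the same as for Irgm2, with a 9.83-fold lower level in Py8119 than in Py117 tumours (difference -3.30 ± 0.35, adjusted p = 5.19e-07).

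Irgm1 was 8.41, 8.99, 10.33, 9.26 and 8.99 in Py117 tumours, 7.85, 8.49, 9.27, 8.76 and 8.02 in mixed tumours and 6.54, 6.71, 6.96, 6.86 and 7.13 in Py8119 tumours. Py8119 tumours were 5.13-fold below Py117 tumours without overlap (difference -2.36 ± 0.29, adjusted p = 3.4e-06). The shared probe set of Gbp2 and Gbp2b, which the rule leaves out, was 9.28, 10.69, 12.24, 10.66 and 10.39 in Py117 tumours and 8.77, 8.98, 9.25, 9.33 and 9.31 in Py8119 tumours. It was lower by 1.53 on the log2 scale (difference -1.53 ± 0.38, adjusted p = 0.00332), but Py117 tumour 1 fell within the range of the Py8119 tumours. In mixed tumours it was 10.30, 10.92, 11.86, 10.86 and 10.71, above every Py8119 tumour.

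**Figure D2:**
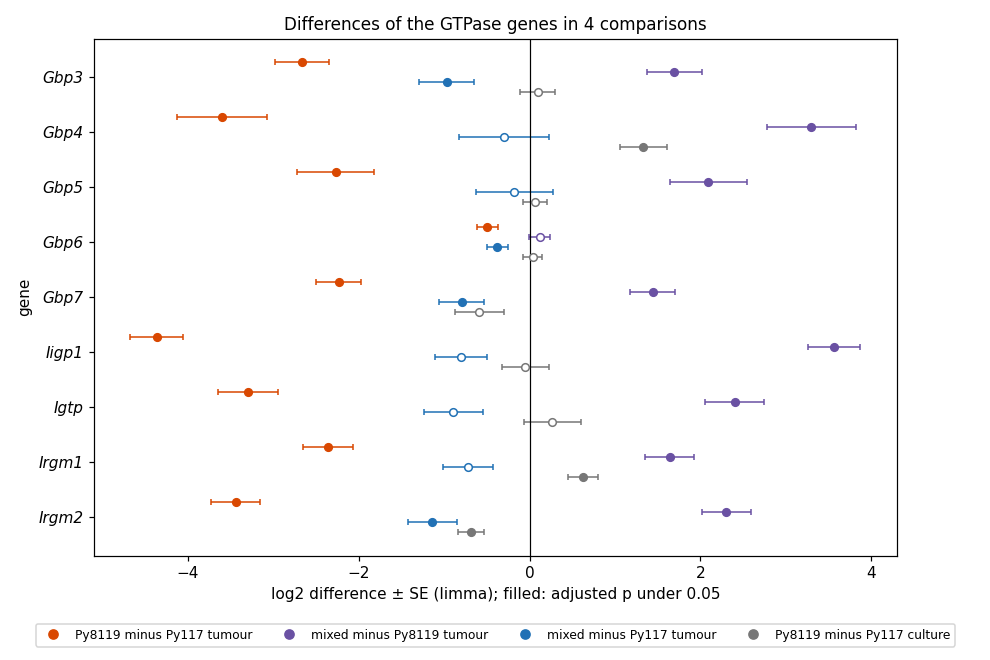
Log2 differences with SE from limma for the 9 genes in 4 comparisons, filled where the adjusted p was under 0.05. Differences of Py8119 from Py117 tumours lie left of 0 for all 9 genes (-4.37 to -0.50), those of mixed from Py8119 tumours lie right of 0, and those between the cultures lie between -0.68 and 1.33.

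Mixed tumours held more of these transcripts than Py8119 tumours. Against Py8119 tumours, 8 of 9 genes were higher in mixed tumours (all but Gbp6), while 1.61% of all genes were. All 8 were at least 2-fold higher (0.771% of all genes), and the 8 had groups that did not overlap (3.85% of all genes in this direction). Iigp1 was 11.9-fold higher (difference 3.57 ± 0.31, limma adjusted p = 1.22e-06), Gbp4 9.86-fold (adjusted p = 0.00132) and Igtp 5.29-fold (adjusted p = 0.000522). Irgm2 was 4.94-fold, Gbp3 3.24-fold, Irgm1 3.12-fold and Gbp7 2.72-fold higher, with adjusted p from 0.000112 to 0.00641. Gbp5 (difference 2.09 ± 0.45, adjusted p = 0.0178) was under the background reference in 4 of 5 Py8119 tumours, and with those set at the reference it was at least 3.43-fold higher. Gbp6 differed by 0.12 ± 0.12 (adjusted p = 0.719). Gbp5 lost its call without mixed tumour 3 or Py8119 tumour 5, which left 7 of 9.

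Against Py117 tumours, the mixed tumours were lower in 4 of 9 genes (16.9% of all genes were called lower), and the groups overlapped for all 9 (10.8% of all genes were lower without overlap). Irgm2 differed by -1.14 ± 0.29 (limma adjusted p = 0.0042), Gbp3 by -0.97 ± 0.32 (adjusted p = 0.0241), Gbp7 by -0.79 ± 0.26 (adjusted p = 0.0256) and Gbp6 by -0.38 ± 0.12 (adjusted p = 0.0225). Just past the threshold and not called, Iigp1 differed by -0.80 ± 0.31 (adjusted p = 0.0505), Igtp by -0.89 ± 0.35 (adjusted p = 0.0533) and Irgm1 by -0.72 ± 0.29 (adjusted p = 0.0636). Gbp4 (-0.30 ± 0.52) and Gbp5 (-0.18 ± 0.45) had intervals wide enough to hold either direction. The count of 4 rested on single tumours: it was 1 without mixed tumour 1 or mixed tumour 5, 2 without Py117 tumour 3, and 7 without Py117 tumour 1 or mixed tumour 3. For Gbp4 and Gbp5 the sign turned without Py117 tumour 3, to 0.26 and 0.29, with neither called.

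Where the mixed mean lies between the pure tumours was also placed on the linear scale, with 0% at the Py117 mean and 100% at the Py8119 mean, since the signal of a mixture adds on that scale. Gbp5 lay at 32.9%, Gbp4 at 40.7%, Iigp1 at 43.7%, Irgm1 at 50.7%, Igtp at 52.0%, Gbp7 at 55.0%, Gbp3 at 58.3% and Irgm2 at 59.2%. The median of the 9 genes was 52.0%, whereas the median of the 1169 genes at least 2-fold lower in Py8119 tumours was 86.6%. Of those 1169 genes, 82 (7.01%) lay at or below 59.2%, the highest position among the 8 genes other than Gbp6. The 82 include these 8 genes by construction, since the cut is their own highest position. The positions rested on the tumours numbered 3. Without Py117 tumour 3 the median of the 9 genes was 31.3%, Gbp4 lay at -27.8% and Gbp5 at -34.1%, that is, with a mixed mean above the Py117 mean. Without mixed tumour 3 the median was 66.8%, Gbp4 lay at 61.2% and Gbp5 at 54.4%, and without both tumours the median was 52.1%, Gbp4 lay at 16.4% and Gbp5 at 8.89%. The median of the 1169 genes was 87.1%, 87.5% and 88.0% in these settings. The positions use the same tumours as the comparisons above, and no test was run on them.

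**Figure D3:**
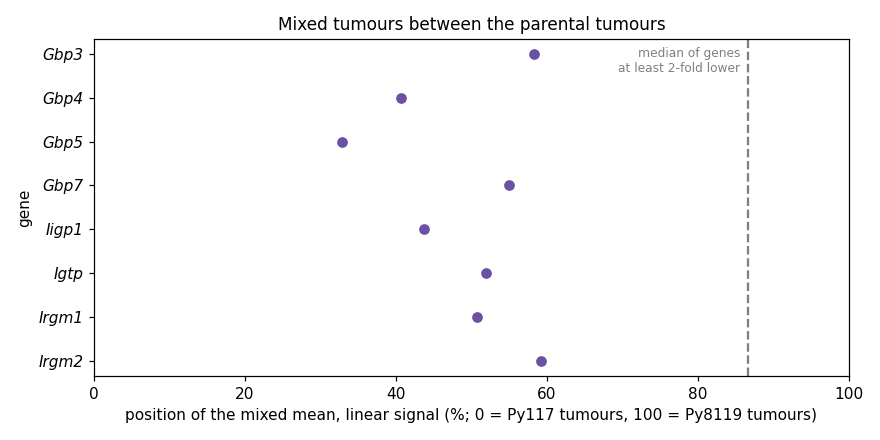
Position of the mixed tumours between the mean linear signals of Py117 tumours (0%) and Py8119 tumours (100%) for 8 genes; Gbp6, under background, is left out, and the dashed line is the median of genes at least 2-fold lower in Py8119 tumours (86.6%). All 8 points lie between 32.9% and 59.2%, left of the dashed line; without Py117 tumour 3, Gbp4 and Gbp5 would lie below 0%.

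Tumours of each line held more of these transcripts than its cultures, and the step was larger for Py117. Because whole tumours were measured, the step need not be one of the line's own cells. In Py117 tumours 9 of 9 genes were higher than in culture (12.4% of all genes were called higher), with a median difference of 4.80 and no overlap for any of the 9 (13.4% of all genes). Iigp1 rose from 4.15, 4.51 and 4.26 in culture to at least 10.72 in tumours, a difference of 7.24 ± 0.30 (limma adjusted p = 5.84e-08). Because every culture value was under the background reference, the rise is given as a bound, at least 75.3-fold against that reference. By the same bound Igtp was at least 37.3-fold, Irgm2 at least 29.0-fold, Gbp3 at least 17.6-fold, Gbp4 at least 12.3-fold and Gbp5 at least 3.88-fold higher. Gbp7 and Irgm1, measured above the reference in culture, were 26.2-fold and 10.6-fold higher.

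In Py8119 tumours 8 of 9 genes were higher than in culture (16.3% of all genes), with a median difference of 2.04 and no overlap for 7 of 9 (16.7% of all genes). Gbp7 was 6.22, 5.41 and 5.02 in culture, and its tumour values of 8.51 to 8.75 lay 3.07 ± 0.22 above (limma adjusted p = 3.91e-06). Bounds against the reference were at least 3.8-fold for Igtp, 3.65-fold for Iigp1, 2.78-fold for Gbp3, 2.67-fold for Irgm2 and only 1.01-fold for Gbp4. Gbp5 was called and did not overlap, but both of its means were under the reference (4.34 in culture and 5.00 in tumours). Gbp4 (0.53 ± 0.15, adjusted p = 0.0196) and Irgm1 (0.43 ± 0.13, adjusted p = 0.0242) were called too, but neither was called after quantile normalization or after centring each array on its median. Each also lost its call when Py8119 culture 1 or Py8119 culture 3 was left out, as did Irgm1 without Py8119 culture 2 or Py8119 tumour 3.

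The difference between these steps was tested as an interaction of line and setting. All 9 genes stepped up less in Py8119 than in Py117 (5.99% of all genes were called in this direction), with a median of -2.76 against 0.03 over all genes. Iigp1 gave -4.31 ± 0.45 (limma adjusted p = 4.32e-06) and Gbp4 -4.93 ± 0.78 (adjusted p = 0.000307). Both genes were under background in both cultures, where Gbp4 already differed by 1.33, so the size for Gbp4 includes a difference between background signals. Gbp6 gave -0.53 ± 0.16 (adjusted p = 0.0331), from signals under background throughout. Gbp5 (-2.33 ± 0.65, adjusted p = 0.0231) lost its call without Py117 culture 1, Py117 culture 2 or Py8119 culture 2. Gbp6 lost its call under 11 of 25 alternatives, 7 of them leaving out 1 array.

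Within the Py117 and mixed groups, the tumours differed from each other in these genes as a block. Py117 tumour 3 was the highest of its group and Py117 tumour 1 the lowest for 9 of 9 genes, and mixed tumour 3 and mixed tumour 1 held the same places for 9 of 9. Over the genes, Py117 tumour 3 was a median of 1.42 above the mean of the other Py117 tumours and Py117 tumour 1 was 1.03 below it. Mixed tumour 3 was 1.26 above and mixed tumour 1 was 0.84 below. In the Py8119 group no tumour held either end for all genes: tumour 4 was highest for 4 genes, tumour 5 for 2, and tumours 1, 2 and 3 for 1 each. Tumour numbers only name the replicates, and the labels give no link between tumours of the same number.

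The spread was large beside that of most genes. Median SD over the 9 genes was 0.71 in Py117 tumours, 0.64 in mixed tumours and 0.23 in Py8119 tumours, against medians over all genes of 0.21, 0.15 and 0.15. Of the 9, 8 had an SD above the 95th percentile of all genes in Py117 tumours (0.49) and in mixed tumours (0.34), and 1 did in Py8119 tumours. Without the pair of high tumours, Py117 tumour 3 and mixed tumour 3, the 9 genes were still all called lower in Py8119 than in Py117 tumours, with a median difference of -2.38, and 8 were still called higher in mixed than in Py8119 tumours.

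**Figure D4:**
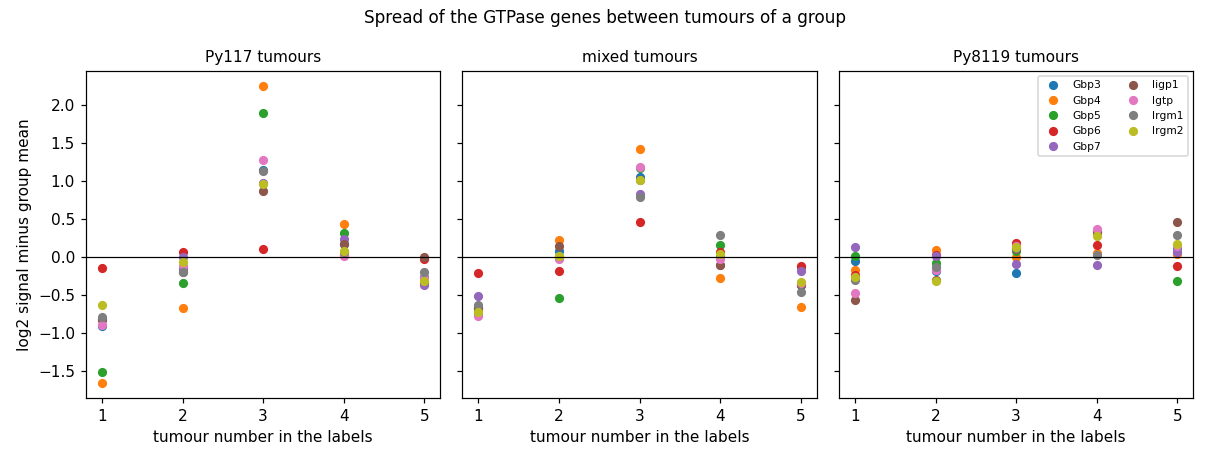
Log2 signal minus the group mean for the 9 genes (colours) by tumour, in the Py117, mixed and Py8119 groups; tumour numbers only name replicates. Tumour 3 is highest and tumour 1 lowest for 9 of 9 genes in the Py117 and mixed groups, and the points of the Py8119 tumours stay closer to 0.

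Between the tumour groups, the ligand and the start of its pathway did not all differ as the GTPases did. Ifng, the cytokine itself, was 5.36, 5.51, 6.66, 6.08 and 5.45 in Py117 tumours, 5.67, 5.50, 7.37, 6.06 and 5.99 in mixed tumours and 5.49, 5.38, 5.34, 5.50 and 5.64 in Py8119 tumours. Most of these values lie close to the background reference, the highest in the Py117 and mixed groups are again tumour 3, and the groups overlap. Within the Py117 group, Ifng ranked the tumours in the same order as the mean of the GTPases (8.12, 8.84, 10.21, 9.20 and 8.79). Within the mixed and Py8119 groups the orders differed. Signals this close to background limit what a comparison of Ifng between groups can show. Its difference between Py8119 and Py117 tumours was -0.34 ± 0.29 (limma adjusted p = 0.42), and it was not called in any comparison between tumour groups.

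Of the receptor chains and kinases, Ifngr2, Jak1 and Jak2 were lower in Py8119 than in Py117 tumours. Between the cultures, Ifngr2 (-0.57 ± 0.11) and Jak1 (-0.91 ± 0.08) were already called lower in Py8119. Their interactions of line and setting were not called (0.02 ± 0.16 and -0.33 ± 0.22), unlike those of the GTPases. Jak2 was called neither between the cultures (-0.27 ± 0.10) nor in the interaction (-0.51 ± 0.24). Ifngr1 differed by 0.02 ± 0.10 between the pure tumours (limma adjusted p = 0.936), whereas Ifngr2 was lower in Py8119 tumours (-0.55 ± 0.10, adjusted p = 0.000186). Jak1 was 11.08, 10.83, 10.61, 10.77 and 11.55 in Py117 tumours, 9.81, 10.07, 10.26, 9.83 and 9.97 in mixed tumours and 9.86, 9.68, 9.64, 9.78 and 9.67 in Py8119 tumours. Its Py117 tumours lay above all others, and it was lower in Py8119 tumours by 1.24 on the log2 scale (difference -1.24 ± 0.14, adjusted p = 1.43e-06). Mixed tumours sat near Py8119 tumours in Jak1 (difference 0.26 ± 0.14, adjusted p = 0.444), unlike in Iigp1 or Gbp4. Jak2 was lower in Py8119 than in Py117 tumours too (-0.78 ± 0.18, adjusted p = 0.00155).

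Irf1, a transcription factor that acts on many of these promoters, was 8.03, 8.28, 9.64, 8.44 and 8.51 in Py117 tumours and 9.17, 9.41, 9.91, 9.49 and 9.28 in mixed tumours. In Py8119 tumours it was 8.61, 9.02, 8.86, 8.92 and 8.91, above all Py117 tumours other than tumour 3. The difference was 0.29 ± 0.22 (limma adjusted p = 0.374), and without Py117 tumour 3 it was 0.55 and called. In mixed tumours Irf1 was higher than in Py117 tumours by 0.87 ± 0.22 (adjusted p = 0.00457), where the differences of the 9 GTPases ran from -1.14 to -0.18. That call was lost with the adipocyte marker mean as a covariate (0.53). Socs1, the feedback inhibitor of the receptor's kinases, differed by 0.15 ± 0.23 between the pure tumours (adjusted p = 0.703). Between the cultures, Irf1 (1.01 ± 0.12) and Socs1 (1.09 ± 0.11) were called higher in Py8119. Their interactions of line and setting were not called (-0.73 ± 0.34 and -0.94 ± 0.34). Of the 18 ligand and signalling genes measured, 8 were lower and 1 was higher in Py8119 than in Py117 tumours (median difference -0.34), with Usp18 (-3.10), Stat2 (-1.81) and Irf9 (-1.72) the largest.

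**Figure D5:**
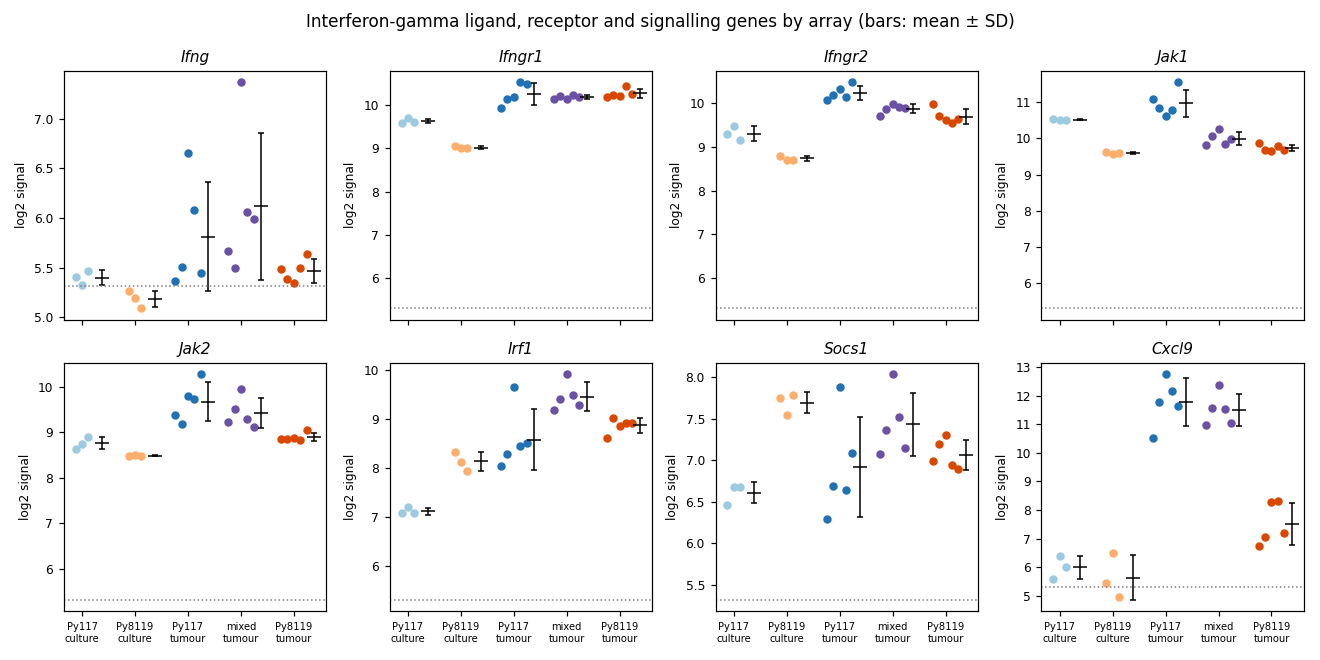
Log2 signal by array of Ifng, its receptor chains, their kinases, Irf1, Socs1 and the induced chemokine Cxcl9, with group mean and SD and the background reference of 5.31 (dotted); y axes differ. Cxcl9 separates Py8119 tumours (6.73 to 8.33) from Py117 and mixed tumours, as the GTPases do, while Ifng and Ifngr1 overlap between the 3 tumour groups.

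Most relatives of the GTPases were lower in Py8119 tumours too. Of 14 measured GBP and IRG relatives outside the list, 11 were lower in Py8119 than in Py117 tumours (16.5% of all genes were). The median difference of the 14 was -1.50, and 6 of the 14 were higher in mixed than in Py8119 tumours (1.61% of all genes). Among the relatives, the IRG-like genes Gm4951 (-3.29 ± 0.33), F830016B08Rik (-3.06 ± 0.35) and Gm12250 (-3.02 ± 0.44) and the guanylate-binding protein Gbp10 (-2.95 ± 0.43) had the largest differences between the pure tumours. Of 23 other interferon-gamma-induced genes, 17 were lower in Py8119 than in Py117 tumours (median difference -0.89) and 8 were higher in mixed than in Py8119 tumours. The shares of all genes beside these counts are again 16.5% and 1.61%. Cxcl9, a chemokine that draws T cells, differed by -4.25 ± 0.38 (limma adjusted p = 7.19e-08), Tap1, the peptide transporter of antigen presentation, by -2.63 ± 0.25, Zbp1, a sensor of nucleic acid, by -2.53 ± 0.32 and Cxcl10 by -1.97 ± 0.41.

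Autophagy and inflammasome partners, with which GBPs and IRGs work, differed in both directions: of 20 measured, 10 were higher (21% of all genes were) and 4 lower (16.5% of all genes) in Py8119 than in Py117 tumours, with a median difference of 0.24. Casp1 (-1.55 ± 0.16) and Casp4 (-1.50 ± 0.22), the inflammatory caspases, were lower. Map1lc3b, an LC3 protein of the autophagosome (0.70 ± 0.09), and Fnta, a subunit of the enzyme that attaches farnesyl lipids (0.89 ± 0.10), were higher. Between the cultures, Casp1 (-1.20 ± 0.13) and Fnta (0.68 ± 0.11) were already called in the same directions, and their interactions of line and setting were not called. Casp4 (0.03 ± 0.19) and Map1lc3b (0.13 ± 0.13) were not called between the cultures, and their interactions were called.

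The genes closest to the mean course of the 9 over the 21 arrays were found by the root mean square difference of centred log2 signals. Predicted genes, small RNAs and clone names, such as Gm4951 and F830016B08Rik, were left out of this choice, so the ranks hold only among the remaining genes. Among those, Zbp1 was nearest at 0.342, then Tap1 at 0.402, Gbp8 at 0.445, Slamf7 at 0.453, Fgl2 at 0.454, Cfb at 0.465, Rtp4 at 0.468, Ddx60 at 0.488, Gbp10 at 0.491 and Parp14 at 0.493. The 9 themselves ran from 0.242 for Gbp3 to 1.66 for Gbp6, and the median of all genes was 1.90. Zbp1 was 9.34, 10.01, 11.18, 9.79 and 9.85 in Py117 tumours, 8.58, 9.07, 10.21, 9.14 and 8.62 in mixed tumours and 7.19, 7.13, 7.35, 8.01 and 7.83 in Py8119 tumours, with tumour 3 highest and tumour 1 lowest in the Py117 and mixed groups.

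Markers of other cells differed between the tumours as well. Of 16 T cell and NK cell markers, 9 were lower in Py8119 than in Py117 tumours (16.5% of all genes were), with a median difference of -0.90 over the list. Among the 9 were Cd3g (-2.24 ± 0.32), Cd8b1 (-1.61 ± 0.24), Cd3e (-1.58 ± 0.27) and Cd8a (-1.56 ± 0.28). The mean level of the list ran from 6.35 to 7.34 in Py117 tumours, 6.38 to 7.14 in mixed tumours and 5.77 to 6.07 in Py8119 tumours, without overlap between Py8119 tumours and the rest, and Cd2 and Klrb1c were under the background reference in the Py8119 group. By tumour it was 6.48, 6.35, 7.02, 7.34 and 6.93 in the Py117 group, highest in tumour 4, and 6.38, 6.46, 7.14, 6.56 and 6.48 in the mixed group, highest in tumour 3. In mixed against Py8119 tumours 2 of these 16 markers were higher (limma, adjusted p under 0.05), as were 1.61% of all genes. At an unadjusted p under 0.05, 12 of 16 differed. The share of all genes at that unadjusted p is not given here, so the 12 cannot be set against a background. The part of lymphocytes in the GTPase levels was not tested.

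Endothelial markers were lower in Py8119 than in Py117 tumours for 9 of 9 genes. Fibroblast markers were lower for 8 of 9 and adipocyte markers for 7 of 8, whereas macrophage markers were higher for 8 of 11. Of all genes, 16.5% were called lower and 21% higher. Median differences of the lists, in this order, were -1.63, -1.40, -1.47 and 0.53, against 0.01 over all genes. In the other direction, 1 fibroblast marker was called higher and 1 macrophage marker, Cd14, lower (-1.34 ± 0.11). Cd14 was already called lower between the cultures (-2.54 ± 0.13). Its mean was 9.85 in Py117 cultures, so its signal in tumours need not come from macrophages. In mixed against Py8119 tumours, where 8 of the 9 GTPases were higher, limma called 0 of 9 endothelial, 0 of 9 fibroblast, 0 of 8 adipocyte and 0 of 11 macrophage markers. Only 1.61% of all genes were called higher in that comparison, so a count of 0 in lists of this length is near the background. At an unadjusted p under 0.05 the counts were 5, 2, 0 and 1, with no share of all genes given at that p. Mean levels of the endothelial list were 7.47 to 8.29 in Py117 tumours, 6.76 to 6.92 in mixed tumours and 6.33 to 6.72 in Py8119 tumours. Epithelial markers, high in Py117 cultures, were lower in Py8119 than in Py117 tumours for 6 of 8 and higher in mixed than in Py8119 tumours for 3 of 8.

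Adipocyte markers varied most among the Py117 tumours, with list means of 8.68, 5.86, 6.00, 7.59 and 8.83 in tumours 1 to 5 against 5.60 to 6.41 in the mixed and Py8119 tumours. With that mean as a covariate, the 9 GTPases were again all called lower in Py8119 than in Py117 tumours, at a median difference of -3.20, and 8 of 9 higher in mixed than in Py8119 tumours.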

How the data were processed

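RNA of 6 cultures and 15 tumours was hybridised to Affymetrix mouse whole-transcript arrays. The values are log2 signals per probe set that the authors deposited in 1 table; RMA and limma are named, without versions, in the submitters' processing notes, and the array's genome build is not given in the sources used here. Of 41345 probe sets, 23521 carried 1 gene symbol, 1814 several and 16010 none. Each of the 22180 genes with a single-symbol probe set was represented by the one with the highest mean.

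Differences were fitted on all genes with limma 3.58.1 (lmFit and eBayes, R 4.3.3): the cultures in 1 fit, the 3 tumour groups in 1 fit, tumour against culture within a line, and the interaction in 16 arrays. The fits were two-sided with Benjamini-Hochberg adjustment and were tested on simulated data. P-values measure the spread between arrays, and the number of arrays limits the precision. Comparisons of the tumour groups share arrays with each other. Alternatives were quantile normalization, median centring, dim genes left out, the mean of probe sets, probe sets with several symbols, an intensity trend with robust prior, array weights, 1 fit of 21 arrays, a replicate block, an adjusted p of 0.01, the adipocyte mean as covariate and each array left out. The genes named are all listed GTPases and 8 signalling and induced genes. Also named are up to 4 genes per list with the largest called difference between Py8119 and Py117 tumours. The 10 nearest genes by root mean square difference follow, with predicted genes, small RNAs and clone names left out. Epcam, Esrp1, Cldn4, Cldn7, Cd2 and Klrb1c are named for lying under background. The members and the 10 gene lists were chosen with earlier results of these data known, and the background reference was set after the data were seen. Iigp1, Gbp4 and Gbp6 promoters and all protein sequences are not analysed here.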

Additional observations from a re-analysis of the deposited data

Results flagged for a closer look

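The step from culture to tumour differed between the lines, by the limma interaction over 16 arrays, for all 9 GTPases. The difference of the steps (Py8119 minus Py117, log2) was -4.93 for Gbp4 (adjusted p = 0.000307), -4.31 for Iigp1 (adjusted p = 4.32e-06), -3.56 for Igtp (adjusted p = 0.000141), -2.98 for Irgm1 (adjusted p = 7.8e-05) and -2.76 for Irgm2 (adjusted p = 5.17e-05). It was -2.76 for Gbp3 (adjusted p = 0.000311), -2.33 for Gbp5 (adjusted p = 0.0231), -1.65 for Gbp7 (adjusted p = 0.0137) and -0.53 for Gbp6 (adjusted p = 0.0331). Gbp4 was under background in both cultures and already differed there by 1.33, which is included in its value, and Gbp6 was under background on all arrays. Every tumour of both lines was above the mean of its own cultures for Iigp1, Igtp, Irgm2, Gbp3 and Gbp7. The same held for Irgm1, Gbp4 and Gbp5, though in Py8119 tumours and cultures Gbp4 and Gbp5 lay near or under background. Whole tumours of each line thus held more of these transcripts than its cultures, with a smaller step for Py8119. Whether the line's own cells raised them was not tested.

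Among the other named genes, Cxcl9 also stepped up less in Py8119, by -3.89 (limma adjusted p = 0.000503). Ifngr1 went the other way, with a step that was 0.63 larger in Py8119 (adjusted p = 0.0193). It started lower in Py8119 cultures (-0.61 ± 0.09, limma adjusted p = 0.00191) and differed by only 0.02 ± 0.10 between the pure tumours.

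A single tumour stood far from the others of its group for 2 of 51 groups of 5 tumours examined, where chance gives about 1 in 20. Ifngr1 in Py8119 tumour 4 was 10.45, with a gap to the next tumour of 0.716 of the group's range, and Jak2 in Py8119 tumour 5 was 9.05, with a gap of 0.838 of the range; the critical value was 0.71.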

How the results depend on the processing

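The called values of single genes kept their sign under each of the alternatives run, and 36 of 2682 alternatives changed the sign of a value that was called in neither setting. All 9 genes were called lower in Py8119 than in Py117 tumours under each alternative that tested them; with dim genes left out, Gbp5 and Gbp6 were not tested and the other 7 were called. The median difference ran from -2.89 to -2.38 with 1 array left out. Between the cultures, the counts of 2 higher and 1 lower became 0 and 0 in 1 fit of all 21 arrays and at an adjusted p of 0.01. With 1 array left out they ran from 1 to 2 higher and 0 to 2 lower. In mixed against Py117 tumours, the count of 4 lower became 7 in the fit of all 21 arrays, 7 with the adipocyte mean as covariate, 7 without Py117 tumour 3 and mixed tumour 3 (chosen after seeing the data), and 1 at an adjusted p of 0.01, and it ran from 1 to 7 with 1 array left out. In Py8119 tumours against culture, the count of 8 higher became 5 in the fit of all 21 arrays and ran from 6 to 8 with 1 array left out, and the median of 2.04 became 2.56 with dim genes left out, which tests fewer of the genes. With 1 array left out, the count of mixed against Py8119 tumours ran from 7 to 8 and that of the interaction from 7 to 9; at an adjusted p of 0.01 they were 7 and 6. The cause of the other changes was not tested. Centring arrays on their medians moved the median of all genes by 0.15 between the cultures, 0.10 between the pure tumours, -0.16 for Py117 tumours against culture and -0.20 for Py8119 tumours against culture. Gbp6 on all arrays, and 7 of the 9 genes in culture, lie under background, which limits their differences.

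Same-numbered arrays did not deviate together throughout (Py117 with mixed tumours: correlations of 0.16, 0.10, 0.26, 0.18 and -0.06). Arrays of different numbers were not correlated for comparison, so this check cannot decide whether same-numbered arrays share a batch or handling order. The labels give no link between them, and the numbers were not taken as pairing the samples. With the replicate number as a block, 1 gene was called higher in Py8119 cultures and 7 were lower in mixed than in Py117 tumours.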
